A study of Mus musculus with 2 samples.

Results

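The miR-30 family was examined in small RNA libraries of the mouse adrenal gland. Its members are the 7 genes Mir30a, Mir30b, Mir30c-1, Mir30c-2, Mir30d, Mir30e and Mir30f, taken by their GENCODE M21 symbols out of 2202 microRNA (miRNA) genes in the count tables. The libraries came from total RNA of adrenal glands of female B6CASTF1/J mice, first-generation hybrids of the strains C57BL/6J and CAST/EiJ, aged 18 to 20 months. There was 1 group of 2 biological replicates, with no treatment, second age or second strain. Each replicate is a separate tissue sample, but both are entered under 1 donor record, so the spread given here is the spread between these samples. The values are counts of reads on the own strand of each hairpin gene, with a total of 2590051 (replicate 1) and 2291030 (replicate 2). Levels are given as CPM, the count of a gene per 1000000 of its library's total.

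A miRNA is cut from a hairpin transcript, and 1 arm of the hairpin, loaded into an Argonaute protein, pairs with messenger RNAs mainly through its seed, bases 2 to 8 from its 5′ end. miR-30 miRNAs share a seed and are known from kidney podocytes, heart, endothelium and fat cells, where they restrain epithelial-to-mesenchymal transition, apoptosis and fibrosis, among other processes. The genes lie in 3 loci of a pair of hairpins each, with a further annotated hairpin opposite one of them. Their targets are messenger RNAs, which these libraries do not measure.

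The sequences show which reads of the family can be told apart. RefSeq on GRCm38.p6 gave mature sequences for 5 of the 7 members. Mir30b and Mir30d had no entry. The following 5′ arms, with the seed in capitals, carry the shared part of the family. The single annotated arm of Mir30f and the 5′ arm of Mir384, a gene of the X chromosome outside the family, are set beside them.
miR-30a-5p: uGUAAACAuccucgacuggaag
miR-30e-5p: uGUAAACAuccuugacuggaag
miR-30c-5p: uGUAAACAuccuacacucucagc
miR-30f: gUAAACAUccgacugaaagcuc
miR-384-5p: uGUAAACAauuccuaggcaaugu
Among the 1058 genes with a mature entry, 5 had the letters GUAAACA at bases 2 to 8, namely Mir30a, Mir30c-1, Mir30c-2, Mir30e and Mir384. In miR-30f the same letters begin at base 1, so its bases 2 to 8 differ from those of the others. From base 1 at the 5′ end, miR-30a-5p and miR-30e-5p differ by C13U alone. miR-30c-5p differs from miR-30a-5p at 5 of the 22 bases compared, the first of them at base 13.

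The 3′ arms are shown with the bases that differ within each pair in capitals, since they are what separates near-identical members.
miR-30a-3p: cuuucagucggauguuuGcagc
miR-30e-3p: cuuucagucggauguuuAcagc
miR-30c-1-3p: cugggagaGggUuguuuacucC
miR-30c-2-3p: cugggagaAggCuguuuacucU
The arms of Mir30a and Mir30e differ by G18A, and those of Mir30c-1 and Mir30c-2 by G9A, U12C and C22U. A full-length read of either arm thus separates Mir30a from Mir30e at a single base, and a shorter read does so only where it covers that base.

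For Mir30c-1 and Mir30c-2 the 5′ arm is the same sequence. The longest stretch shared by their hairpins is in capitals below.
Mir30c-1: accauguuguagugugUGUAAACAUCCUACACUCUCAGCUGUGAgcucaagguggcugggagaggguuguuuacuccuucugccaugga
Mir30c-2: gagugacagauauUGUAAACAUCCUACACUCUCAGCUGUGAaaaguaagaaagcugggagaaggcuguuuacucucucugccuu
The shared stretch is 28 bases long and holds all 23 bases of miR-30c-5p plus 5 bases after it. A read within it fits both loci, and the gene counts hold no read with more than 1 place in the genome. Counts of Mir30c-1 and Mir30c-2 therefore leave out such 5′ arm reads, and their levels are no measure of miR-30c-5p. By comparison, the longest stretch shared by the hairpins of Mir30a and Mir30e is 18 bases. No hairpin of these 4 members shared more than 11 bases with any of the other hairpins in the RefSeq table. Mir30b, Mir30d and Mir30f have no hairpin there, so the members were not compared with them.

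On mm10, Mir30d (chromosome 15, 68341208 to 68341289) overlaps an exon of the long noncoding gene Gm20732. Mir30b lies 3697 bases from it, at 68337415 to 68337510, in no other gene of its strand. Mir30a lies on chromosome 1, 23272269 to 23272339, in no other gene of its strand, and Mir30c-2 lies 19361 bases away, at 23291701 to 23291784, in an exon of the long noncoding gene Gm27028. Mir30e (chromosome 4, 120772606 to 120772697) and Mir30c-1 (120769534 to 120769622) lie 2983 bases apart in introns of Nfyc, which codes for a subunit of the transcription factor NF-Y. Mir30f is annotated at the coordinates of Mir30e on the other strand. The 22 bases of its annotated arm overlap the place of miR-30e-3p by 19 bases.

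miR-30 genes together held 2.38% ± 0.145 of the counts in miRNA genes (SD, n = 2). The family had 58890 counts in replicate 1, or 2.27% (Wilson 95% interval 2.26 to 2.29). It had 56788 in replicate 2, or 2.48% (2.46 to 2.50). The share was slightly higher in replicate 2. Of the genes grouped by the number in their symbol, the miR-30 group ranked 9 by mean level, 10 in replicate 1 and 8 in replicate 2. Reads aligned to several places are missing from all groups, so the share and the ranks describe counted reads only. At least 10 counts in each library were found for 6 of the 7 members, and for 339 of all 2202 genes. Fewer cells of a type and less RNA per cell cannot be told apart in such bulk tissue.

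Mir30d, Mir30a and Mir30e carried 97.04% ± 0.0993 of the family's counts (SD, n = 2), and they lie at 3 different loci. Reads that fit both Mir30c genes are not counted, so this share can be too high. Mir30d had 23711 counts (9155 CPM) in replicate 1 and 25863 (11289 CPM) in replicate 2, a mean of 10222 ± 1509 CPM (SD, n = 2). Mir30a had 20007 counts (7725 CPM) and 15208 (6638 CPM), a mean of 7181 ± 768 CPM (SD, n = 2). Mir30e had 13469 counts (5200.3 CPM) and 13995 (6109 CPM), a mean of 5654 ± 642 CPM (SD, n = 2). Mir30d was thus high in replicate 2 and Mir30a in replicate 1, and the values of the 3 genes did not overlap. They ranked 22, 28 and 32 among all miRNA genes by mean level.

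The other gene of each locus was far lower. Mir30c-2 had 892 and 978 counts in replicates 1 and 2 (344 and 427 CPM), a mean of 386 ± 58.3 CPM (SD, n = 2). Mir30c-1 had 421 and 486 counts (163 and 212 CPM), a mean of 187 ± 35.1 CPM (SD, n = 2). Reads within the shared stretch shown above are missing from both. Mir30b had 390 and 258 counts (151 and 113 CPM), a mean of 132 ± 26.8 CPM (SD, n = 2). Together these 3 genes held 2.96% ± 0.0993 of the family (SD, n = 2).

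Mir30f had no own-strand counts in either library, which allows up to 3 counts, or 1.16 CPM in replicate 1 and 1.31 CPM in replicate 2. Against that limit Mir30e was at least 4490-fold higher in replicate 1 and at least 4665-fold higher in replicate 2. The counted reads at this place thus lay on the strand of Mir30e. When strand is ignored they become ambiguous, and both genes are listed at 0.

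**Figure D1:**
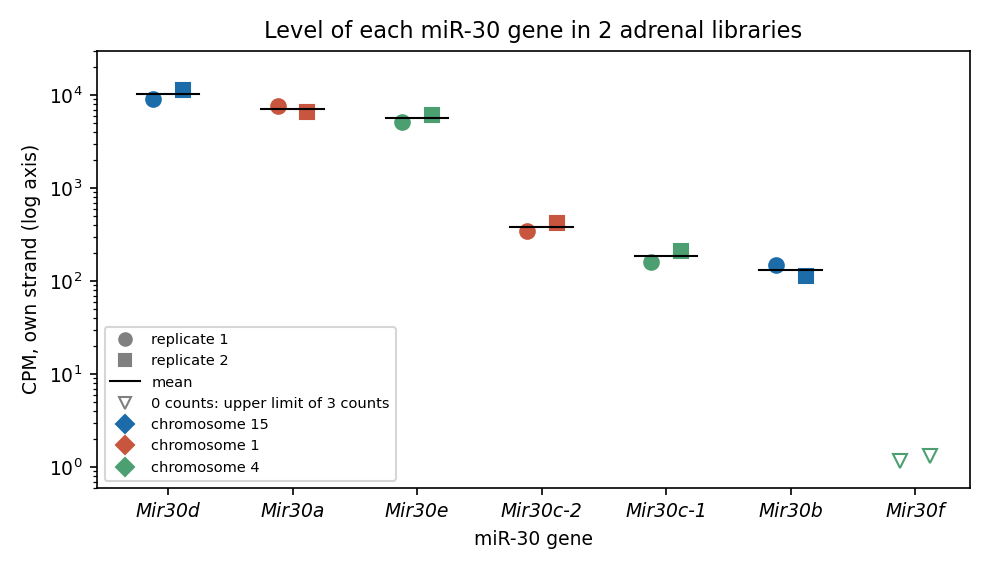
CPM of each miR-30 gene on a log axis, with circles for replicate 1, squares for replicate 2, a line for the mean and colours for the chromosome. Mir30d, Mir30a and Mir30e lie between 5200.3 and 11289 CPM, the other counted members between 113 and 427 CPM, and Mir30f is drawn at the limit that 0 counts allows.

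The order of levels was the same in both libraries, Mir30d, Mir30a, Mir30e, Mir30c-2, Mir30c-1, Mir30b and Mir30f. The steps within it differed in size. Mir30d was 1.19-fold above Mir30a in replicate 1 and 1.70-fold above it in replicate 2. Mir30a was 1.49-fold above Mir30e in replicate 1 but 1.09-fold in replicate 2, so these neighbours lay close in that library. Their means were 1527 CPM apart, with SDs of 768 and 642 CPM. The widest step among counted members was from Mir30e to Mir30c-2, at 15.1-fold and 14.3-fold. Reads that fit both Mir30c genes are not counted, so this step can be too wide. The places of Mir30c-2 and Mir30c-1 in the order are those of counted reads only. Mir30c-1 was 1.08-fold above Mir30b in replicate 1, where their Wilson 95% intervals overlapped (148 to 179 and 136 to 166 CPM), and 1.88-fold above it in replicate 2. These steps were not tested over samples.

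Of the 3 loci, the chromosome 15 pair had the most counts, followed by the chromosome 1 pair and the chromosome 4 pair, in both libraries. Reads within the stretch shared by Mir30c-1 and Mir30c-2 are missing from the chromosome 1 and 4 pairs. The shares of these pairs can thus be too low, and the order is that of counted reads only. Whether reads of Mir30b and Mir30d also fit other places was not checked, as both had no RefSeq entry. Mir30d and Mir30b together held 40.9% of the family (Wilson 95% interval 40.5 to 41.3) in replicate 1, against 46.0% (45.6 to 46.4) in replicate 2. Mir30a and Mir30c-2 held 35.5% (35.1 to 35.9) and 28.5% (28.1 to 28.9). Mir30e and Mir30c-1 held 23.6% (23.2 to 23.9) and 25.5% (25.1 to 25.9). The share of the chromosome 1 pair was thus lower in replicate 2, and those of the other pairs were higher. Over both libraries the means were 43.5% ± 3.59, 32.0% ± 4.94 and 24.5% ± 1.35 (SD, n = 2 each).

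**Figure D2:**
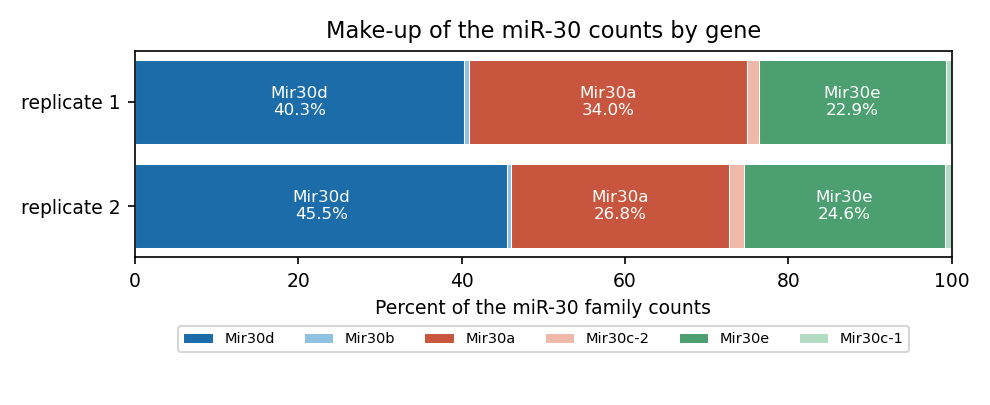
Stacked bars give the percent of miR-30 counts from each gene in replicate 1 (top) and replicate 2 (bottom), with the genes of a locus side by side in shades of 1 colour. Mir30d takes 40.3% in replicate 1 and 45.5% in replicate 2, Mir30a 34.0% and 26.8%, and Mir30e 22.9% and 24.6%.

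The libraries were then compared gene by gene, to see how far the members moved together between these samples. The test was an exact conditional binomial test, two-sided, of the raw counts, scaled with edgeR's TMM factors and adjusted by Benjamini-Hochberg over the 367 genes with a summed count of at least 20. Its spread is counting error only, so it compares 2 libraries and no conditions. All 6 tested members were called at an adjusted p of 0.05, against 62.7% of all tested genes. That share includes genes of low count. With a summed count of at least 200, which all 6 members had, 180 of 229 genes were called. Of the 6 members, 4 were higher in replicate 2 (30.2% of all tested genes) and 2 in replicate 1 (32.4%), and these directions were the same under every scaling tried.

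Mir30a and Mir30b were the members higher in replicate 1. Mir30a had a log2 ratio of replicate 2 over replicate 1 of -0.18 (95% interval -0.21 to -0.15, adjusted p = 5.06e-31, exact test). Mir30b had a log2 ratio of -0.38 (-0.61 to -0.15, adjusted p = 0.00178, exact test). Their partners at the same loci were higher in replicate 2, so the counted reads of neither pair moved in 1 direction. Counts of Mir30c-1 and Mir30c-2 lack the reads that fit both genes. Mir30c-2 had a log2 ratio of 0.35 (0.21 to 0.48) and Mir30d of 0.34 (0.31 to 0.37). At the chromosome 4 locus both genes were higher in replicate 2, with log2 ratios of 0.27 for Mir30e (0.24 to 0.30) and 0.42 for Mir30c-1 (0.23 to 0.61).

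All 6 absolute ratios lay below the median of the tested genes, several of them by little. Of the tested genes, 22.1% had a smaller absolute ratio than Mir30a, the member with the smallest, and 46.0% than Mir30c-1, the member with the largest. The median absolute log2 ratio was 0.34 over the 6 tested members and 0.46 over all 367 genes tested. The tested genes include genes of low count, whose ratios have more counting error. Ratios of the members were not compared with those of genes of like level. No member differed by 1.5-fold, while 35.1% of the tested genes were called and differed by at least that much. The biological coefficient of variation between the libraries, from edgeR's common dispersion, was 0.432. As a sum, the family had a log2 ratio of 0.16 (0.15 to 0.18). Its size depended on the scaling and was 0.03 with TMM factors taken over all genes, a choice that moved the median of all genes by -0.13.

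**Figure D3:**
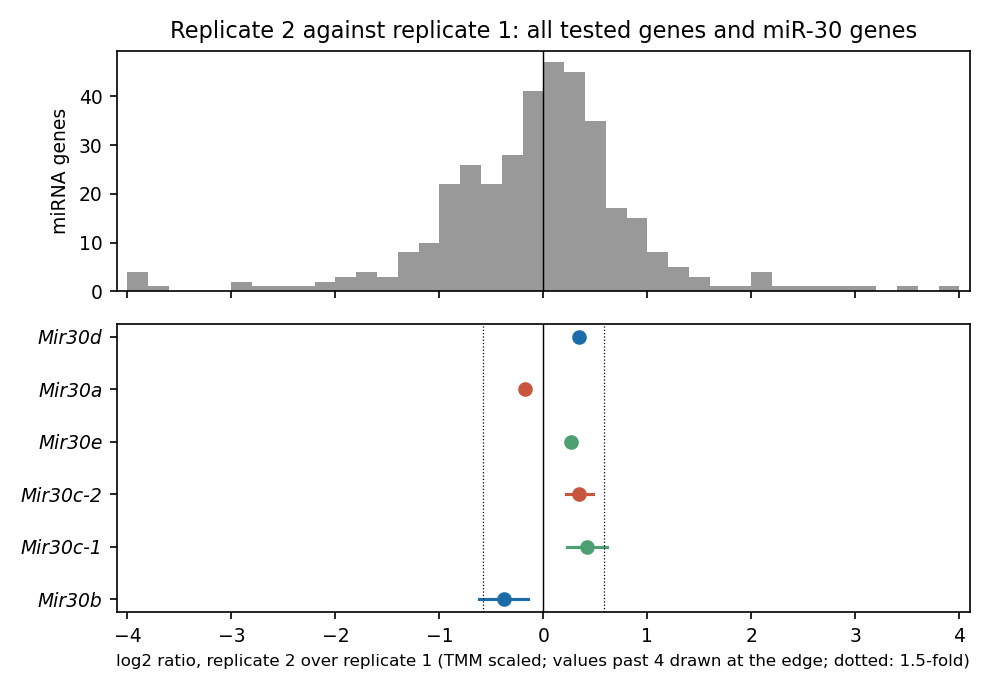
The upper panel is a histogram of the log2 ratio of replicate 2 over replicate 1 for the 367 tested miRNA genes, and the lower panel gives each tested miR-30 gene with its exact 95% interval on the same axis. All 6 ratios lie between -0.38 and 0.42, inside the dotted lines at 1.5-fold.

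The ratio of the 2 genes of a locus needs no scaling between libraries and was compared with a two-sided Fisher exact test on the 4 counts. It was run on the 125 pairs of adjacent same-strand miRNA genes within 50 kb that each had a summed count of at least 20, with Benjamini-Hochberg adjustment over all of them. The ratio differed between the libraries at 2 of the 3 miR-30 loci, against 56.8% of all pairs. Mir30d had 60.8 counts for each count of Mir30b in replicate 1 and 100.2 in replicate 2, a change of 1.65-fold (95% interval 1.40 to 1.94, adjusted p = 1.54e-09, Fisher's exact test). Mir30a had 22.4 counts for each count of Mir30c-2 in replicate 1 and 15.6 in replicate 2, a change to 0.693 of the first value (0.631 to 0.762, adjusted p = 6.93e-14, Fisher's exact test). Mir30e had 32.0 and 28.8 counts for each count of Mir30c-1, a change to 0.90 that did not pass (0.786 to 1.03, adjusted p = 0.177, Fisher's exact test).

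All 3 loci were thus uneven, with 1 gene far above its partner in each library. The mean absolute log2 ratio within a pair was 6.28 at chromosome 15, 4.92 at chromosome 4 and 4.22 at chromosome 1, beside a median of 2.41 over the 125 pairs. They ranked 8, 21 and 31 from the most uneven pair. Mir30b and Mir30d had no RefSeq entry, so whether reads at chromosome 15 also fit other places was not checked. At chromosomes 1 and 4 the lower gene is a copy of Mir30c, whose 5′ arm reads align to both loci, so those ratios can be too high. How far the uncounted reads affect the change of those ratios between libraries was not tested. The change of the ratio between libraries was 0.72, 0.53 and 0.15 on the log2 scale at chromosomes 15, 1 and 4, beside a median of 0.55 over all pairs.

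**Figure D4:**
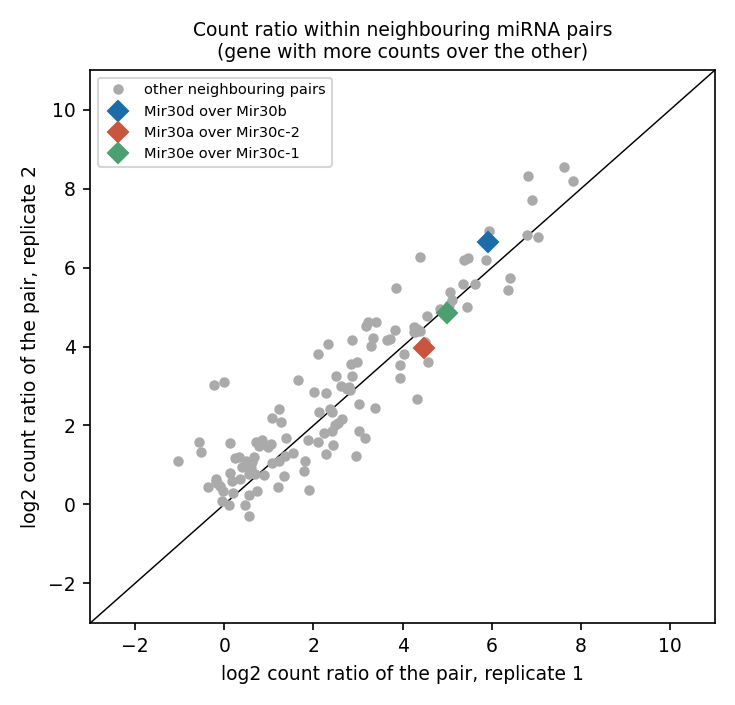
Each point is 1 of 125 neighbouring pairs of miRNA genes, with the log2 count ratio of the gene with more counts over the other in replicate 1 (x axis) and replicate 2 (y axis) and a line where both are equal. The miR-30 pairs, drawn as diamonds, lie at ratios of 60.8 and 100.2 for Mir30d over Mir30b, 22.4 and 15.6 for Mir30a over Mir30c-2, and 32.0 and 28.8 for Mir30e over Mir30c-1.

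Mir384, the other gene with the miR-30 seed in the RefSeq table, ranked 305 by mean level. It had 32 counts in replicate 1 (12.4 CPM) and 27 in replicate 2 (11.8 CPM), a log2 ratio of -0.03 (-0.83 to 0.75) that did not pass (adjusted p = 1.0, exact test). Its mean of 12.1 ± 0.403 CPM (SD, n = 2) compares with 23762 ± 1450 CPM for the miR-30 genes together (SD, n = 2).

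Set beside other multi-gene families, miR-30 was near miR-26 in its total of counted reads. The 3 Mir26 genes held 2.10% ± 0.311 of counts, the 4 Mir29 genes 1.14% ± 0.306 and the 11 let-7 genes 28.1% ± 0.256 (SD, n = 2 each). Mir26b took 99.1% of its family's mean share, Mir29a 87.6% and Mirlet7b 42.8%, while Mir30d took 42.9% ± 3.73 of the miR-30 counts (SD, n = 2). Differences between families were not tested, and reads with several places in the genome are missing from each of them. The number of missing reads can differ between families, so these totals and top shares describe counted reads only. The log2 ratio between the libraries was -0.52 for the sum of Mir29 (-0.54 to -0.49), 0.34 for that of Mir26 (0.32 to 0.36) and 0.06 for that of let-7 (0.05 to 0.06).

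The genes nearest to each member were found by Euclidean distance of log2(CPM + 1) over the 2 libraries, a measure mainly of level. Mir125a lay nearest to Mir30a, with 7886 and 6804 CPM at a distance of 0.0464. The nearest were Mir151 to Mir30d (0.231), Mir320 to Mir30e (0.235), Mir3102 to Mir30c-2 (0.0812), Mir700 to Mir30c-1 (0.271) and Mir381 to Mir30b (0.165).

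Other miRNAs that act on matrix genes and the epithelial state differed between the libraries in both directions. Of 15 listed genes of the Mir29, Mir200, Mir101 and Mir34 families with Mir205, 13 were tested, 7 were higher in replicate 1 and 4 in replicate 2, beside 32.4% and 30.2% of all tested genes. Their median log2 ratio was -0.83, beside 0.01 over all tested genes and 0.30 over the tested miR-30 members. Mir29a, a repressor of collagen genes, led the list with 11677 and 8251 CPM, a log2 ratio of -0.46 (-0.49 to -0.44). Mir34a, a target of p53, had 2688 and 1389 CPM and a log2 ratio of -0.92 (-0.98 to -0.85). Mir34c of the same family was higher in replicate 2, with 2553 and 3174 CPM and a log2 ratio of 0.35 (0.30 to 0.40). Mir34b had 75.7 and 76.4 CPM and a log2 ratio of 0.05 (-0.25 to 0.35) that did not pass (adjusted p = 0.815, exact test). The epithelial Mir200c had 25.1 and 197 CPM and a log2 ratio of 3.00 (2.63 to 3.41). The Mir34 genes and Mir200c were chosen after their values were seen.

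Lists of markers for other cells and organs were read from the same fit, beside 32.4% of all tested genes called higher in replicate 1 and 30.2% higher in replicate 2. A marker is given as detected where it had at least 10 counts in each library. Striated muscle markers, of which 1 of 9 was detected (Mir206), summed to 598 CPM in replicate 1 and 81.2 CPM in replicate 2, and all 4 tested were higher in replicate 1. Of the others tested, Mir499 had 420 counts in replicate 1 and 3 in replicate 2, Mir208a 231 and 0, and Mir208b 157 and 1. Endothelial markers (1 of 2 detected), nearly all Mir126a, summed to 64764 and 33414 CPM, and both were higher in replicate 1. Neuroendocrine markers of the adrenal medulla (5 of 11 detected), led by Mir375, summed to 66586 and 56987 CPM, and all 5 tested were higher in replicate 1. Kidney markers (4 of 6 detected), led by Mir204, summed to 150 and 96.9 CPM, with 2 of 4 tested higher in replicate 1. Erythroid markers (3 of 3 detected), led by Mir451a, summed to 902 and 490.2 CPM, with 2 of 3 tested higher in replicate 1. No tested gene of these 5 lists was called higher in replicate 2. Mir30a and Mir30b were the miR-30 members higher in replicate 1.

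Epithelial markers (3 of 7 detected), led by Mir203, summed to 1192 and 1871 CPM, with 4 of 5 tested higher in replicate 2 and 0 in replicate 1. Adipose markers (5 of 5 detected), led by Mir335, summed to 2627 and 3520.3 CPM, with 3 of 5 higher in replicate 2 and 1 in replicate 1. Mir30d, Mir30e, Mir30c-1 and Mir30c-2 were the miR-30 members higher in replicate 2. Leukocyte markers (6 of 7 detected), led by Mir146, summed to 3045 and 2955 CPM, with 1 of 6 tested higher in each library. No counts were found in either library for Mir133b, Mir142b, Mir9-2, Mir1a-1, the 2 Mir133a genes and the 3 Mir124a genes, and in 1 library for Mir215, Mir208a, Mir1a-2, Mir9-1 and Mir9-3. The 3 Mir9 genes share a mature sequence in RefSeq, and the Mir1a, Mir133a and Mir124a genes carry numbers of the same kind. Reads aligned to several places are missing from the gene counts, so a 0 at a gene with copies does not show that its miRNA is absent. The part of these cells in the miR-30 ratios was not tested.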

How the data were processed

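The authors deposited 1 table of raw counts per library, in 3 columns whose values show them to be strand-ignored, own-strand and opposite-strand reads of each miRNA gene. The build is mm10 and the annotation GENCODE M21, per the deposited notes. Which aligner, trimmer and counter were used is not given in the sources used here. The 4 rows that name no gene held 73.6% of reads in replicate 1 and 67.2% in replicate 2. They were left out of library sizes. Reads aligned to several places made up 24.0 and 28.0 percentage points of these, and unmapped reads 40.6 and 29.8. Own-strand counts in miRNA genes were 26.4% and 32.8% of all reads. The effect of these differences on the comparison of the libraries was not tested.

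All gene identifiers matched GENCODE M21. Scaling used edgeR 4.0.16 TMM factors, 1.01 and 0.987, over genes with a summed count of at least 20. Log2 ratios have a prior count of 0.5. Exact tests, exact intervals and Wilson 95% intervals came from scipy 1.17.1. Tests were checked on simulated counts with counting error alone and without TMM scaling. Such a check does not cover other spread between these libraries. Intervals and the limit of 3 counts cover counting error only, and PCR copies of 1 molecule are not independent. DESeq2 1.42.0 size factors, total counts, other filters, prior counts, pair distances and strand settings were alternatives.

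Genes named are the members, genes with their seed, the nearest gene of each member, and the most abundant gene of each comparison family and marker list. Listed markers with 0 counts, Mir499, Mir208b, the Mir34 genes and Mir200c were added after their values were seen. The members, lists and tests were chosen with earlier results of these data known. CAST/EiJ alleles differ from the C57BL/6J build at some places, and the effect on the counts was not tested.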

Additional observations from a re-analysis of the deposited data

Results flagged for a closer look

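The table row of Mir30f held 13469 opposite-strand counts in replicate 1 and 13995 in replicate 2, the same numbers as the own-strand counts of Mir30e, which has the same coordinates. Mir30e's own-strand counts are already part of the family's total, so these are not further reads of the family. These values were looked at because they lie in a column that the comparisons do not use, above the limit that 0 counts allows.

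Reads aligned to several places numbered 2357429 in replicate 1 and 1958627 in replicate 2, a class with no gene names. The family's own counts equal 2.50% and 2.90% of these totals. How many of the reads are miR-30c-5p was not tested.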

How the results depend on the processing

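All 29 log2 ratios of single members under other scalings, strand settings and prior counts kept their direction and their call. Ignoring strand removes Mir30e, which moved the family share to 2.09% and the shares of the chromosome 15, 1 and 4 loci to 57.1%, 41.9% and 1.03%. As a share of all reads in the tables the family held 0.706%. Without replicate 1 or 2 the family share was 2.27% to 2.48%, and the shares of the loci were 40.9% to 46.0%, 28.5% to 35.5% and 23.6% to 25.5%. Requiring 1.5-fold as well as the adjusted p left 129 genes and 0 members called. Within 10 kb the chromosome 1 pair is not tested, and 1 of 2 miR-30 loci differed. TMM factors over all genes, chosen after seeing the data, gave 85 genes higher in replicate 2 and 139 higher in replicate 1, beside 111 and 119. No paired analysis was possible because there is a single group, and the tests between libraries have no value with 1 library left out. Depth limits Mir30f, whose level could not be told from 0 up to 3 counts.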
